A study of Homo sapiens with 12 samples.

Results

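The expression of 10 genes that the tumour suppressor p53 activates was followed in A375 cells, an established human melanoma line, before, during and after exposure to inhibitors of the MAPK pathway. MDM2, TP53INP1, FAS, RRM2B, BTG2, GDF15, ZMAT3, SESN1, FDXR and AEN were taken by gene symbol from a table of 44659 genes. All 10 were among the 15916 genes with enough counts to be tested. Cells kept in DMSO, the drugs' solvent, for 72 h were the control (CC). The BRAF inhibitor vemurafenib and the MEK inhibitor cobimetinib, at 500 nM each, were given together for 72 h to the treated cells (TC). Persister cells (PC) had the same drugs and then grew for 2 days in drug-free medium, and recovered cells (RC) for 9 days. Each group held 3 libraries. Control cells were harvested only at the end of the 72 h, so drug withdrawal and added time in culture cannot be told apart in PC and RC. The cells were passed when needed, all came from 1 line, and the labels do not say whether the replicates were cultures grown apart. The p-values therefore measure only the spread between these libraries. Per the labels, the RNA was cytoplasmic, whereas the RNA-seq methods of the paper name total RNA, so the fraction is not settled.

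p53 is a transcription factor that is held at a low level by MDM2, the ubiquitin ligase that marks it for destruction, and MDM2 is itself a p53 target. When p53 is stabilised by DNA damage or other stress, it binds paired half-sites near its target genes and raises transcripts that halt the cell cycle, adjust metabolism and nucleotide supply, or lead to cell death. Most targets also answer to other factors: GDF15 is known to be induced by ATF4 in the stress response, and SESN1 by FOXO factors.

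Sequences resembling the site that p53 binds are shown first, for 6 of the members, since p53 is known to act on its targets through such sites. In RefSeq windows of 300 bases around transcription starts (GRCh38.p14, 250 bases before to 50 after), the best match to the p53 response element was sought for 8 members. The element is 20 bases long, made of a pair of half-sites of 10 bases, and reads the same on both strands. The core CNNG was required in each half-site and is in capitals, and each sequence is given 5′ to 3′ on the strand of its gene.
MDM2: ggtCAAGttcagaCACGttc
FAS: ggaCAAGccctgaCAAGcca
AEN: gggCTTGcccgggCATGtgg
SESN1: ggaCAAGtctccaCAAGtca
FDXR: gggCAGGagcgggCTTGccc
GDF15: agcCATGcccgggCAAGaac

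The MDM2 (chr12:68808923-68808942, plus strand), FAS (chr10:88991309-88991328, plus strand) and AEN (chr15:88621306-88621325, plus strand) elements matched 18 of the 20 letters. The MDM2 and FAS elements lay in intron 1 of the canonical transcript, and the AEN element lay just before exon 1. The SESN1 (chr6:109009018-109009037, minus strand), FDXR (chr17:74872996-74873015, minus strand) and GDF15 (chr19:18386186-18386205, plus strand) elements matched 17, and lay in intron 1, before exon 1 and in exon 1, respectively. Of 35116 RefSeq windows of this length, 0.285% held a match of 18 letters or more and 1.12% a match of 17 or more. These shares are per window, whereas each member's match is the best of all its windows (17 windows for the 8 members). Windows without the elements shown matched at best 12 letters for MDM2 and FAS, 15 for SESN1 and 10 for FDXR. The best match was 16 letters for ZMAT3 (4.05% of all windows had as many) and 11 for BTG2. A match describes the sequence only, and binding of p53 was not measured.

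The 12 libraries held 37773389 to 55567097 counts, at which 3 counts are at most 0.0794 CPM (counts scaled to a common library size after normalization), a limit of counting error only. The melanocyte factors SOX10 and MITF and the pigment genes PMEL and DCT were abundant. The pigment gene TYR was low, at 1.39 CPM (RC replicate 2) to 5.93 CPM (TC replicate 1), and MLANA was below 2 CPM. The keratinocyte, fibroblast, leukocyte and endothelial markers reached at most 5.21 CPM (VWF). As a check of drug action, 3 MAPK output genes (DUSP6, SPRY4 and ETV4) together had 595 to 1255 CPM in CC and 7.38 to 9.82 CPM in TC. CC replicate 3 stood apart: DUSP6, a phosphatase induced by ERK, had 297 CPM there against 77.6 and 94.4 CPM in the other CC libraries. It also had the highest MDM2, GDF15 and AEN and the lowest RRM2B, BTG2, SESN1 and FDXR of CC, so values against CC are also given without it for the main results that moved.

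**Figure D1:**
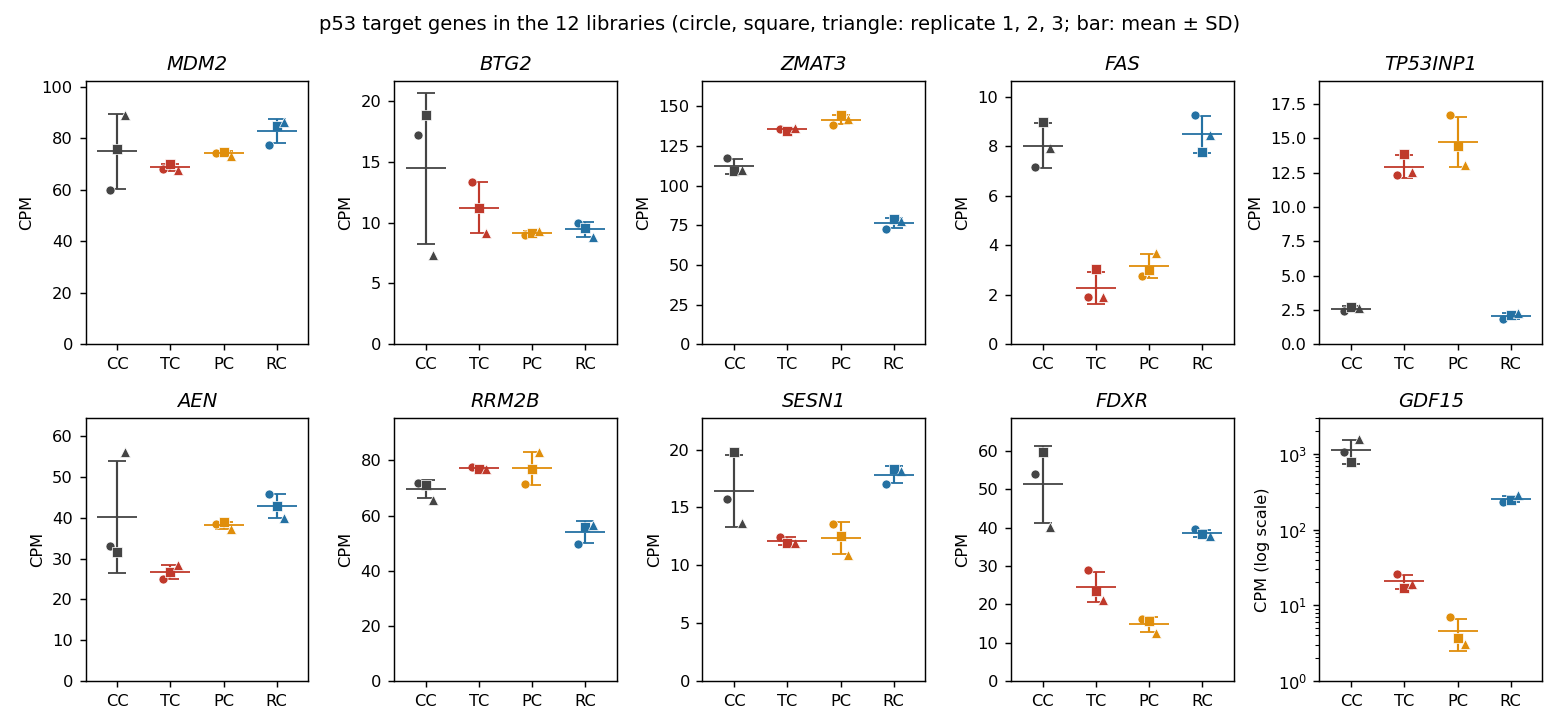
Level of the 10 p53 target genes in each library, in CPM (linear axis from 0, log axis for GDF15), for CC, TC, PC and RC; circles, squares and triangles are replicates 1, 2 and 3, and bars are mean ± SD (n = 3). TP53INP1 is high in TC and PC, FAS, FDXR and GDF15 are low there, ZMAT3 and RRM2B are lowest in RC, and MDM2 and AEN in CC are spread widely.

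Whether exposure to the inhibitors changes the p53 targets was asked with TC against CC. Of the 10 genes, 2 rose (TP53INP1 and ZMAT3), 5 fell (GDF15, FAS, FDXR, AEN and SESN1) and 3 did not pass the test (MDM2, RRM2B and BTG2). Among all 15916 tested genes, 33.2% rose and 34.7% fell, so the counts of the members were near that background. Beyond 1.5-fold, 4 of the 10 changed (GDF15, FAS, FDXR and TP53INP1), against 35.4% of all genes. The median log2 fold change of the 10 was -0.40, against -0.02 for all genes. Without CC replicate 3, 2 rose and 6 fell, BTG2 being added. Tests were edgeR's quasi-likelihood test over all genes with Benjamini-Hochberg adjustment, two-sided.

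The transcript of MDM2 itself (chromosome 12, 68808177 to 68845544, plus strand) had the narrowest range of the 10, 0.57 log2 units over the 12 libraries. It stood at 59.9, 75.9 and 88.9 CPM in replicates 1 to 3 of CC and 68.1, 70.1 and 67.8 CPM in TC. The TC values lay inside the range of CC, and the log2 difference was -0.13 (SE 0.11, edgeR adjusted p 0.326). Without CC replicate 1, the lowest for MDM2, the difference was -0.26 (adjusted p 0.00877), and it was 0.02 without CC replicate 3 (adjusted p 0.831). MDM2 was at 74.2, 74.9 and 73.3 CPM in PC and at 77.6, 84.7 and 86.3 CPM in RC. These values, too, lay within the CC range, with log2 differences from CC of -0.02 (SE 0.11, adjusted p 0.906) and 0.14 (SE 0.11, adjusted p 0.321). Without CC replicate 3 the difference in PC was 0.14 (adjusted p 0.182), and MDM2 was higher in RC by 0.29 (adjusted p 0.0213). Without CC replicate 1 they were -0.15 (adjusted p 0.0888) and 0.01 (adjusted p 0.952).

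Of the 3 members tied to cell death, TP53INP1 rose, and FAS and AEN fell. TP53INP1 (chromosome 8) encodes a nuclear protein that promotes autophagy and p53-driven death. It had 2.39, 2.73 and 2.67 CPM in CC and 12.3, 13.9 and 12.6 CPM in TC. All TC libraries were above all CC libraries, a 4.97-fold difference (log2 2.31, SE 0.13, adjusted p 1.35e-08). FAS (chromosome 10, 88953813 to 89029605, plus strand), the death receptor, went the other way. It had 7.16, 8.99 and 7.96 CPM in CC and 1.89, 3.04 and 1.90 CPM in TC, with no overlap. This was 3.53-fold lower (log2 -1.82, SE 0.20, adjusted p 5.05e-06). AEN (chromosome 15, 88621337 to 88632281, plus strand), a nuclease that cuts DNA during apoptosis, had 33.1, 31.7 and 56.1 CPM in CC and 24.9, 26.7 and 28.5 CPM in TC. The groups did not overlap, but the size of the fall rested on CC replicate 3: the log2 change was -0.59 (SE 0.17, adjusted p 0.00912) and -0.27 without that library (adjusted p 0.00689).

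Exons of TP53INP1 overlap those of another counted gene, NDUFAF6, over 3.99% of their length. The overlap was 1.89% for FAS (with ACTA2 and STAMBPL1) and 1.6% for MDM2 (with the gene CPM), and there was none for the other 7. Whether the counting used strand is not given in the sources used here, so reads in these stretches cannot be assigned with certainty. The shares are of all annotated exons of a gene, 29313 bases for FAS, whose canonical transcript has only 3696 bases. How many of the 553 overlapped bases of FAS lie in that transcript was not determined.

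The pair that acts on growth arrest and RNA turnover differed. ZMAT3 (chromosome 3, 178960121 to 179072215, minus strand), an RNA-binding zinc finger protein that alters splicing, had 118, 109 and 110.02 CPM in CC and 136, 134 and 136 CPM in TC. Its groups did not overlap, and the rise was 1.21-fold (log2 0.27, SE 0.05, adjusted p 0.000736). BTG2 (chromosome 1, 203305491 to 203309602, plus strand), an antiproliferative cofactor that recruits the deadenylase of mRNA decay, had 17.2, 18.8 and 7.34 CPM in CC and 13.3, 11.2 and 9.18 CPM in TC. The third CC library lay below all of TC, and the difference did not pass the test (log2 -0.36, SE 0.27, adjusted p 0.243). Without that library, BTG2 was lower in TC by 0.68 on the log2 scale (adjusted p 0.00101).

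Among the members of nucleotide supply and metabolism, FDXR and SESN1 fell. FDXR (chromosome 17, 74862497 to 74873031, minus strand), the mitochondrial ferredoxin reductase of steroid and iron-sulphur cluster synthesis, had 54.1, 59.7 and 40.2 CPM in CC and 28.8, 23.4 and 21.2 CPM in TC. It was lower in each TC library than in any CC library, by 2.10-fold (log2 -1.07, SE 0.15, adjusted p 4.68e-05). SESN1 (chromosome 6, 108984309 to 109094846, minus strand), a sestrin that restrains mTORC1, had 15.7, 19.8 and 13.7 CPM in CC and 12.5, 11.9 and 11.9 CPM in TC. The groups came close without overlapping (log2 -0.44, SE 0.13, adjusted p 0.00858), and the change was -0.28 without CC replicate 2 (adjusted p 0.0346). RRM2B (chromosome 8), the p53-inducible subunit of ribonucleotide reductase that supplies nucleotides for DNA repair, had 71.8, 71.2 and 65.7 CPM in CC and 77.7, 77.0 and 76.7 CPM in TC. Every TC value was the higher, but the difference of 0.15 did not pass the test (SE 0.07, adjusted p 0.0807).

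The largest change of the 10 was that of GDF15 (chromosome 19, 18374731 to 18389176, plus strand), a secreted stress cytokine that suppresses appetite. It had 1049.6, 786 and 1584 CPM in CC and 25.5, 17.1 and 19.2 CPM in TC. The groups lay far apart, a 55.4-fold fall (log2 -5.79, SE 0.33, adjusted p 1.57e-08). Of the 6 genes of the ATF4 arm of the stress response, which also induces GDF15, 5 fell in TC as well: CHAC1 (log2 -5.47), TRIB3 (-3.28), DDIT3 (-2.77), ASNS (-2.63) and ATF4 (-1.75). ASNS rested on 62 to 93 counts per library in CC and 11 to 15 in TC, and how reads with several alignments were counted is not given in the sources used here. ATF3 rose (3.15, SE 0.22, adjusted p 9.59e-08). Within CC, GDF15, ATF4, CHAC1, TRIB3 and ATF3 were all highest in replicate 3, where ATF4 had 769 CPM against 615 and 533 CPM in the others. DDIT3 was nearly level between replicates 3 and 1 (89.3 and 88.8 CPM). ASNS went the other way, with 1.31 CPM in replicate 3 against 2.29 and 2.03 CPM in the others. The part of this arm in the fall of GDF15 was not tested.

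Beside the members, 8 proliferation markers fell together in TC, with a median log2 change of -3.81 and summed levels of 105 to 128 CPM in TC against 1483 to 1826 CPM in CC. Of 3 FOXO factor genes, FOXO3 (0.52) and FOXO4 (0.50) rose and FOXO1 fell (-0.48). The part of cell cycling or of FOXO transcripts in the changes of the members was not tested. In bulk RNA, fewer expressing cells and less RNA per cell cannot be told apart.

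The wider p53 program was read from 26 other targets, of which 24 were tested. In TC, 4 rose, 12 fell and 8 did not pass the test, with a median of -0.18, where 33.2% of all genes rose and 34.7% fell. CDKN1A, the cell cycle inhibitor p21 and the best known p53 target, was at 94.5 ± 9.8 CPM (SD, n = 3) in CC and at 88.7 ± 3.28 CPM in TC, a log2 difference of -0.09 (SE 0.07, adjusted p 0.265) that ran from -0.15 without CC replicate 1 to 0.00 without CC replicate 3 (adjusted p 0.0668 and 0.99). The pair with the largest rise were TP53I3, a quinone oxidoreductase (2.40, SE 0.09, adjusted p 5.46e-10), and PLK2, a polo-like kinase (2.37, SE 0.17, adjusted p 9.35e-08). The largest falls were those of PMAIP1, which encodes the BH3-only death protein NOXA (-5.91, SE 0.38, adjusted p 4.31e-08), and GADD45A, a stress sensor of DNA damage (-1.83, SE 0.13, adjusted p 1.38e-07). PMAIP1 had 36.0, 26.4 and 55.7 CPM in CC and 0.855, 0.511 and 0.597 CPM in TC. The BH3-only gene BBC3 fell (-0.48, SE 0.13, adjusted p 0.00663), and BAX, the pore-forming death effector, had a difference of 0.17 (adjusted p 0.0885), which was 0.29 without CC replicate 2 (adjusted p 0.000857) and 0.10 without CC replicate 3 (adjusted p 0.266). SESN2 and SPATA18 had at most 1 count in any library and were not tested. How the counting treated strand and reads with several alignments is not given in the sources used here, so these counts cannot be read as a lack of expression.

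Of 14 regulators of p53, 13 were tested, and 5 rose and 7 fell in TC, against the same 33.2% and 34.7% of all genes. MDM4, the partner of MDM2 that masks the p53 transactivation domain, fell by 0.46 on the log2 scale (adjusted p 0.000109). CDKN2A, whose ARF product inhibits MDM2, fell by 1.36 (adjusted p 2.39e-06). The checkpoint kinase genes CHEK1 (-3.07, adjusted p 1.39e-08) and CHEK2 (-2.60, adjusted p 2.09e-09) had the largest falls. HIPK2 (0.92, adjusted p 0.0027) and ATR (0.78, adjusted p 2.99e-07), kinases that act on p53 or upstream of it, had the largest rises.

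**Figure D2:**
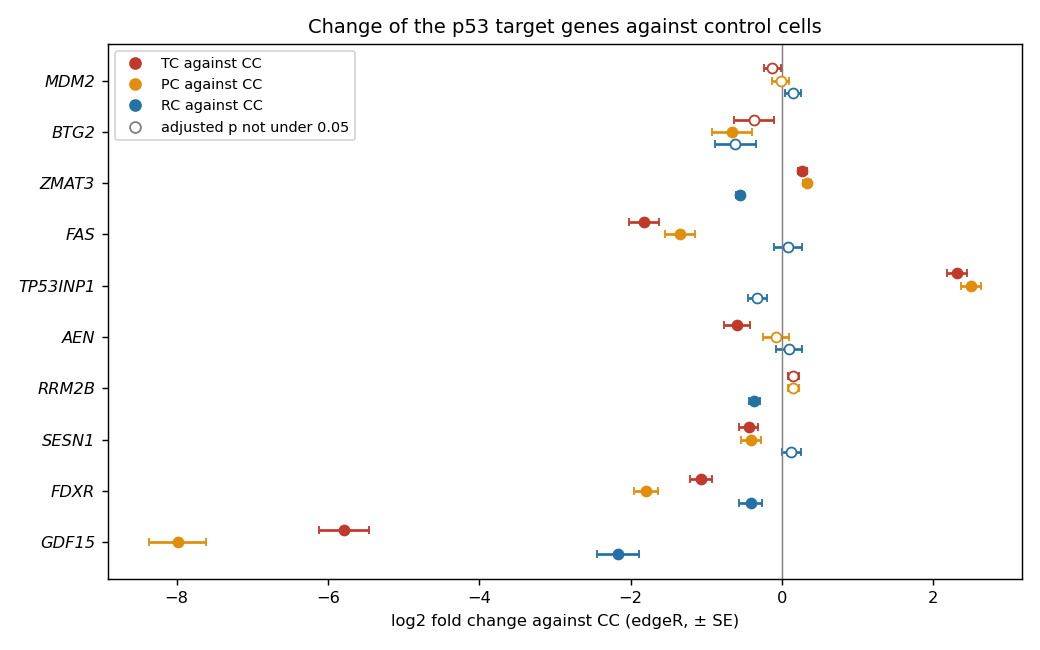
log2 fold change (edgeR, ± SE) of each p53 target gene in TC, PC and RC against CC, with open circles where the adjusted p was not under 0.05. TP53INP1 stands at 2.31 and 2.50 in TC and PC and GDF15 at -5.79 and -7.99, while in RC all but GDF15 lie within 1 log2 unit of 0.

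Whether the changes were still present 2 days after the drugs were removed was asked with PC. The 3 MAPK output genes together were still at 7.43 to 8.42 CPM there, against 7.38 to 9.82 CPM in TC and 595 to 1255 CPM in CC. The part of this low output in the PC values was not tested. Against CC, 2 members were higher (TP53INP1 and ZMAT3) and 5 lower (GDF15, FDXR, FAS, BTG2 and SESN1), against 33.2% higher and 35.9% lower among all genes. Beyond 1.5-fold, 4 members changed, against 37.1% of all genes, and the median log2 fold change was -0.24 (all genes -0.04). Without CC replicate 3 the counts were 3 higher, with AEN added, 5 lower and 5 beyond 1.5-fold. The comparisons with TC and RC share the CC libraries with this one.

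TP53INP1 had 16.7, 14.4 and 13.02 CPM in PC, and FAS had 2.77, 3.00 and 3.70 CPM. TP53INP1 stayed above CC by 5.65-fold (log2 2.50, SE 0.13, adjusted p 7.23e-09) and FAS below it by 2.54-fold (log2 -1.35, SE 0.20, adjusted p 5.48e-05), each without overlap. ZMAT3, at 138, 144 and 142 CPM, was again a little higher (log2 0.34, SE 0.05, adjusted p 0.000134). RRM2B, at 71.4, 76.9 and 83.0 CPM, overlapped CC (log2 0.15, SE 0.07, adjusted p 0.0818).

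GDF15 and FDXR were lower still after withdrawal. GDF15 had 6.91, 3.67 and 3.03 CPM in PC, below all TC libraries, 4.58-fold lower than in TC (log2 -2.20, SE 0.32, adjusted p 0.000386) and 254-fold lower than in CC (log2 -7.99, SE 0.37, adjusted p 3e-09). FDXR had 16.1, 15.6 and 12.6 CPM, 1.66-fold lower than in TC (log2 -0.73, SE 0.15, adjusted p 0.00453) and 3.48-fold lower than in CC (log2 -1.80, SE 0.15, adjusted p 5.8e-07). In the ATF4 arm 5 of 6 genes were again lower than in CC, ATF4 itself with 222, 215 and 208 CPM. The 8 proliferation markers were below CC (median -1.82) and above TC (median 2.01).

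In PC, SESN1, AEN and BTG2 lay near or within the range of the CC libraries. By the log2 difference from CC, AEN was nearer to CC than in TC (-0.59 in TC). SESN1 was about as far as in TC (-0.44), and BTG2 was farther (-0.36 in TC). SESN1, at 13.6, 12.5 and 10.9 CPM, lay just below CC (log2 -0.41, SE 0.13, adjusted p 0.0123), and the call was lost without CC replicate 2 (-0.25, adjusted p 0.0529) and without PC replicate 3 (-0.33, adjusted p 0.0554). BTG2, at 9.00, 9.10 and 9.32 CPM, overlapped CC through CC replicate 3. Its difference of -0.66 (SE 0.27, adjusted p 0.0439) was lost in 11 of 19 alternatives (adjusted p 6.96e-05 to 0.195) and was -0.97 without CC replicate 3 (adjusted p 6.96e-05). AEN had 38.4, 38.9 and 37.3 CPM, within the CC range (log2 -0.08, SE 0.17, adjusted p 0.704). Without CC replicate 3 it turned to a rise of 0.25 (adjusted p 0.0109).

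Set against TC directly, PC had 1 member higher (AEN) and 2 lower (GDF15 and FDXR), where 12.2% of all genes were higher and 12.5% lower. Beyond 1.5-fold only GDF15 changed, against 3.48% of all genes, and the median was 0.05. AEN was above every TC library, 1.43-fold (log2 0.52, SE 0.17, adjusted p 0.0484), but the call was lost on leaving out any 1 library of TC, PC or RC (adjusted p 0.0602 to 0.134). FAS rose past the threshold only without TC replicate 2 (0.73, adjusted p 0.0146, against 0.47 and 0.104 with it). The log2 differences of the other 6 ran from -0.30 for BTG2 to 0.19 for TP53INP1.

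Of the other targets in PC, 7 of 24 were above and 11 below CC, against 33.2% and 35.9% of all genes. TP53I3 reached 47.2, 46.6 and 50.02 CPM, against 4.42, 4.68 and 3.91 CPM in CC, and was higher than in TC by 2.09-fold (log2 1.07, SE 0.08, adjusted p 4.57e-06). PMAIP1 was low, at 0.889, 0.435 and 0.370 CPM. BAX was 0.36 higher than in CC (SE 0.08, adjusted p 0.00207), and CDKN1A differed from CC by -0.11 (SE 0.07, adjusted p 0.188), by -0.17 without CC replicate 1 (adjusted p 0.0444) and by -0.01 without CC replicate 3 (adjusted p 0.861). CHEK1 and CHEK2 were 3.40-fold and 3.97-fold below CC (adjusted p 9.08e-07 and 1.49e-08).

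Whether the p53 targets return to the control level after 9 days without drug was asked with RC. There the 3 MAPK output genes together had 608 to 667 CPM, within the 595 to 1255 CPM of CC. Against CC, 0 of the 10 members were called higher in RC by edgeR and 4 lower (GDF15, ZMAT3, RRM2B and FDXR), where 18.2% of all genes were higher and 19.1% lower. At an unadjusted p under 0.05 the count higher was also 0. DESeq2 also called 0 higher, and without CC replicate 3 edgeR called 2 higher (MDM2 and AEN) and 5 lower. Only GDF15 was changed beyond 1.5-fold, against 3.87% of all genes. The median log2 fold change was -0.34, against 0.00 for all genes.

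GDF15 came back to 231.5, 248 and 282 CPM, which was 56.5-fold above PC (log2 5.82, SE 0.34, adjusted p 1.87e-08). It stayed 4.49-fold below CC without overlap (log2 -2.17, SE 0.28, adjusted p 0.00014, and -1.85 without CC replicate 3). In the ATF4 arm, 5 of 6 genes were also below CC, ATF4 by 0.93 on the log2 scale (adjusted p 0.000196) and DDIT3 by 1.42 (adjusted p 7.3e-05). ASNS, at 16 to 83 counts, differed by -0.88 (adjusted p 0.12).

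ZMAT3 and RRM2B ended below the level they started from. ZMAT3 had 72.75, 79.1 and 77.8 CPM, under every CC, TC and PC library (log2 -0.55 against CC, SE 0.05, adjusted p 3.66e-05). It was thus above CC in TC and PC and below CC in RC. RRM2B had 49.6, 55.7 and 56.7 CPM, also under every other library (log2 -0.36 against CC, SE 0.07, adjusted p 0.002). FDXR, at 39.6, 38.4 and 37.78 CPM, was just under the lowest CC library (log2 -0.41, SE 0.15, adjusted p 0.0465). That call was lost in 10 of 19 alternatives (adjusted p 0.00547 to 0.156), among them the fits without CC replicate 1 (-0.37, adjusted p 0.126), CC replicate 2 (-0.29, adjusted p 0.156), any 1 RC library, PC replicate 1 or 2, or TC replicate 2.

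The other members did not pass the test against CC in RC. FAS had 9.26, 7.76 and 8.45 CPM, overlapping CC (log2 0.08, SE 0.19, adjusted p 0.774). SESN1 had 17.04, 18.3 and 18.2 CPM, also within CC (0.12, SE 0.13, adjusted p 0.476). TP53INP1, at 1.85, 2.12 and 2.25 CPM, lay below each CC library without passing the test (-0.32, SE 0.13, adjusted p 0.0667). BTG2, at 10.0, 9.54 and 8.77 CPM, differed by -0.62 (SE 0.27, adjusted p 0.09), a larger difference than those of ZMAT3, RRM2B and FDXR. DESeq2 called BTG2 lower (-0.60, adjusted p 0.0489), and leaving out CC replicate 3 made the edgeR difference -0.93 (adjusted p 0.000405). AEN, at 45.9, 42.8 and 39.9 CPM, differed by 0.09 (SE 0.17, adjusted p 0.72), or by 0.41 when that library was left out (adjusted p 0.00147).

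From PC to RC, 4 members rose (GDF15, FAS, FDXR and SESN1) and 3 fell (TP53INP1, ZMAT3 and RRM2B), against 35.7% and 34.2% of all genes. Beyond 1.5-fold, 5 changed, against 38.7%, and the median was 0.16 (all genes 0.01). TP53INP1 fell 7.08-fold (log2 -2.82, SE 0.13, adjusted p 2.81e-09), and FAS rose 2.69-fold (log2 1.43, SE 0.20, adjusted p 3.3e-05). FDXR rose 2.61-fold (log2 1.39, SE 0.15, adjusted p 5.19e-06) and SESN1 1.45-fold (log2 0.53, SE 0.13, adjusted p 0.00245). ZMAT3 fell by 0.89 on the log2 scale (adjusted p 2.73e-08) and RRM2B by 0.51 (adjusted p 3.83e-05), in each case with no overlap. The 8 proliferation markers were above PC (median 2.58) and all 8 above CC (median 0.75) in RC, and their part in these changes was not tested.

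Of the other targets in RC, 5 of 24 were above and 8 below CC, with a median of -0.07, against 18.2% and 19.1% of all genes. CDKN1A had 50.4, 49.2 and 49.1 CPM in RC against 86.4, 91.7 and 105 CPM in CC, and fell 1.91-fold (log2 -0.93, SE 0.07, adjusted p 9.6e-06). BBC3 (-1.02, SE 0.13, adjusted p 0.000163) and PLK2 (-0.98, SE 0.16, adjusted p 0.000711) had the largest falls. PLK2 was thus above CC in TC and below it in RC, as ZMAT3 was. PMAIP1 was below CC by 0.84 (adjusted p 0.0368), a call lost without CC replicate 3 (-0.50, adjusted p 0.164), CC replicate 1 (adjusted p 0.0632), RC replicate 1 (adjusted p 0.137) and RC replicate 2 (adjusted p 0.0914). It was also lost with DESeq2 (adjusted p 0.0682) and with only the 2 groups in the fit (adjusted p 0.0621), which makes 6 of 19 alternatives. KITLG, a growth factor of melanocytes (1.41, SE 0.21, adjusted p 0.000354), and APAF1, the scaffold of the apoptosome (0.87, SE 0.16, adjusted p 0.00159), had the largest rises. BAX differed by 0.03 (adjusted p 0.806), and by 0.15 without CC replicate 2 (adjusted p 0.0557).

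Among the regulators of p53 in RC, 4 of 13 were above and 2 below CC, against 18.2% and 19.1% of all genes. The 2 that fell were ATM (-0.59, adjusted p 0.00112) and CDKN2A (-0.52, adjusted p 0.00967). ATR (0.70, adjusted p 2.23e-05) and CHEK1 (0.53, adjusted p 0.0177) had the largest rises, the latter not past the threshold without CC replicate 1 (adjusted p 0.0735) or RC replicate 2 (adjusted p 0.0557). MDM4 differed by 0.11 (adjusted p 0.233).

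**Figure D3:**
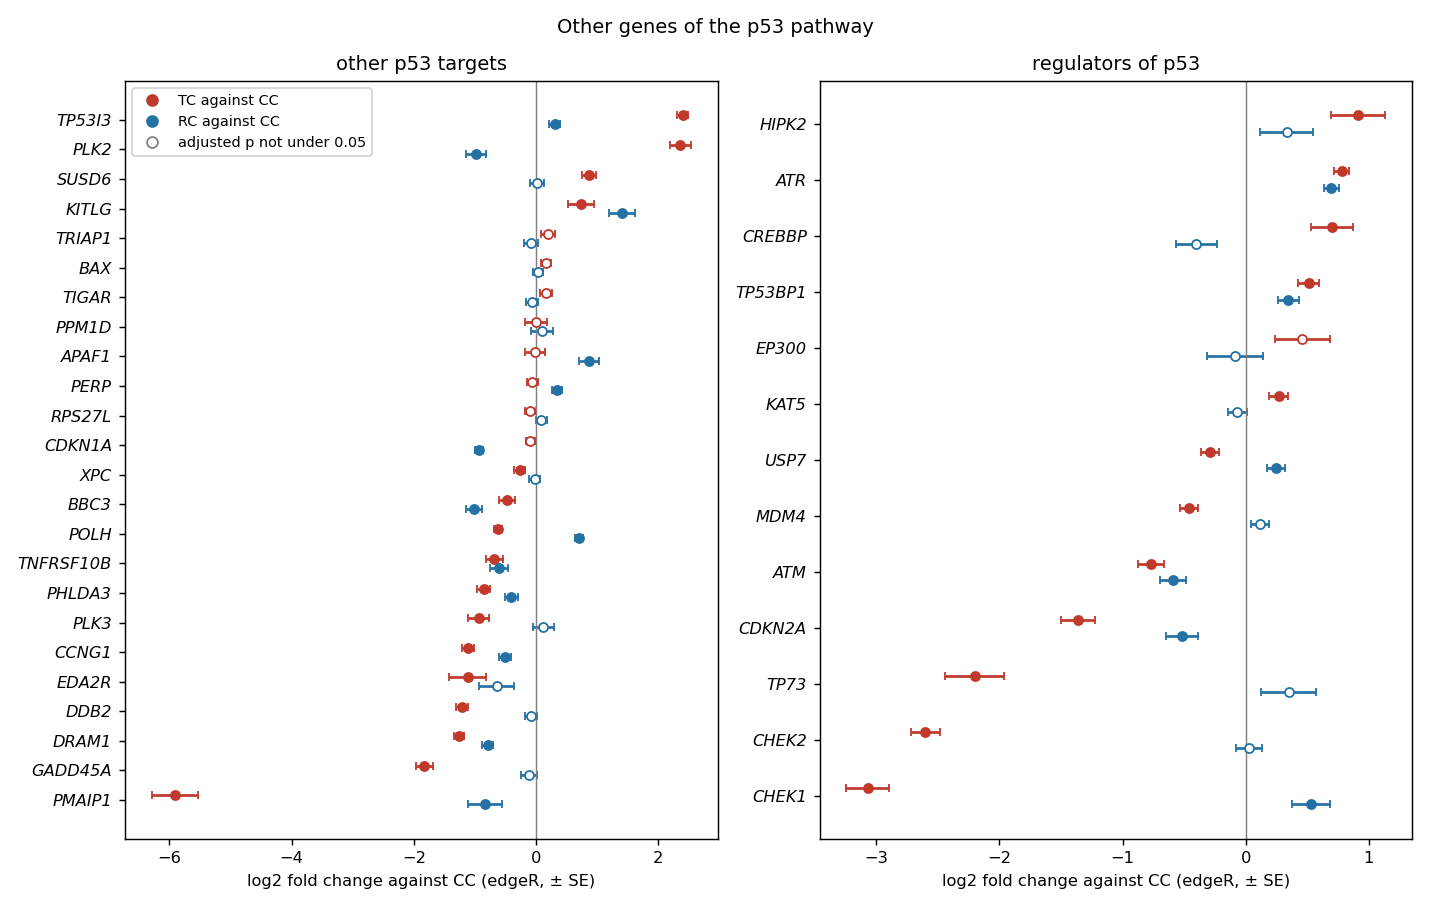
log2 fold change (edgeR, ± SE) in TC and RC against CC of the 24 tested other p53 targets and of the 13 tested regulators of p53, with open circles where the adjusted p was not under 0.05. The targets spread to both sides, from PMAIP1 at -5.91 to TP53I3 at 2.40 in TC, and in RC run from BBC3 at -1.02 to KITLG at 1.41.

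Compared per length, as CPM per kb of the canonical transcript, GDF15 was by far the most abundant member in CC at 950 and TP53INP1 the least at 0.463. Between them stood FDXR (27.8), RRM2B (14.6), AEN (13.1), ZMAT3 (12.6), MDM2 (10.0), BTG2 (5.30), SESN1 (2.89) and FAS (2.17). In this order the CC libraries of AEN overlapped those of RRM2B, ZMAT3 and MDM2, and those of SESN1 overlapped those of BTG2 and FAS. In PC the order was headed by RRM2B (16.2) and ZMAT3 (15.9), with GDF15 at 3.78 and FAS last at 0.854. The PC libraries of ZMAT3 (15.49 to 16.15) lay inside the range of RRM2B (14.95 to 17.39). GDF15 led again in RC at 212 CPM per kb, and TP53INP1 was last at 0.370.

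The patterns of the members over the 12 libraries were compared as the root mean square difference of log2 CPM, each centred on its own mean. RRM2B and ZMAT3 were the closest pair at 0.152, followed by MDM2 and AEN at 0.237. TP53INP1 and GDF15 were the farthest apart at 4.34. Against 13195 genes of at least 1 CPM, the nearest to ZMAT3 were YIPF6 (0.0634) and CHFR (0.0752), and to RRM2B SCFD1 (0.0638) and FCHO2 (0.0696). The nearest to MDM2 were TOPORS (0.0669) and MPHOSPH10 (0.0775), to SESN1 MRPL48 (0.0841) and MAD2L2 (0.089), and to AEN DHX34 (0.102) and SOWAHC (0.126). For FDXR they were PCCA (0.127) and SLC25A5 (0.133), for FAS WDR4 (0.17) and HNRNPA1 (0.177), and for BTG2 PCAT6 (0.171) and HOXB6 (0.175). TP53INP1 was nearest to PLXNB3 (0.187) and ADCY5 (0.192). GDF15, whose own range was 9.03 log2 units, was nearest to PDK4 (0.515) and ITGA10 (0.757). These distances describe each member and do not rank them.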

How the data were processed

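The authors deposited raw read counts per gene for 12 libraries, not normalized. Per the methods and the submitters' processing notes, reads from rRNA-depleted libraries were trimmed with fastp 0.20.1, aligned to GRCh38.p13 with HISAT2 2.2.1 and counted on exons with htseq-count 0.13.5 and the NCBI annotation. Genes with a mean scaled count of at least 10 were kept and scaled with TMM factors (0.965 to 1.02). With edgeR 4.0.16 (R 4.3.3), 1 quasi-likelihood fit took in the 12 libraries, with 4 group means and 8 degrees of freedom left. Calls used an adjusted p under 0.05, and glmTreat tested against 1.5-fold. SE were derived from the F statistic. The fit was tested on simulated counts with known changes between TC and CC. It called 44 of 100 genes changed 1.5-fold and 80 of 100 changed 4-fold, in the right direction. Of 15716 unchanged genes it called 7. There were 5 comparisons and 19 alternatives, including DESeq2 1.42.0, other scalings and filters, a replicate block and each library left out. No pair of libraries within a group was a duplicate, and pairs across groups were not part of that check. Coordinates, exon overlaps and transcript lengths came from GENCODE (GRCh38), matched by symbol, and promoter windows from RefSeq (8 of 10 members matched and searched, in 17 windows). The members and gene lists were chosen with earlier results of these data known. Named were all members; CDKN1A, BBC3, BAX, PMAIP1, MDM4 and CDKN2A; the 2 largest rises and falls per pathway list in TC and RC; and the 2 genes most like each member. Others (the stress, FOXO, proliferation and MAPK genes, and checks of cell identity) were given as context, and genes named for exon overlap, or because a call was lost or reversed, were chosen after their values were seen. The result of 1 gene is not reported here.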

Additional observations from a re-analysis of the deposited data

Results flagged for a closer look

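For 10 results, a member's change against CC differed between harvest days of the drug-treated cells by the test of that difference. These differences equal the comparisons between the treated groups themselves, in which CC cancels. From TC to PC the difference was -2.20 for GDF15 (adjusted p 0.000386), -0.73 for FDXR (adjusted p 0.00453) and 0.52 for AEN (adjusted p 0.0484, edgeR).

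From PC to RC it was -2.82 for TP53INP1 and 5.82 for GDF15, and 1.43 for FAS and 1.39 for FDXR. It was -0.89 for ZMAT3, -0.51 for RRM2B and 0.53 for SESN1, with edgeR adjusted p between 2.81e-09 (TP53INP1) and 0.00245 (SESN1). Time in culture and passages grew along with drug-free time, and their part was not tested.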

How the results depend on the processing

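Of 50 pairs of a member and a comparison, 36 kept their call and direction in all 19 alternatives, and 13 lost or gained a call in at least 1. The remaining 1 was reversed, that is, its sign changed and a call was gained. It was AEN in PC against CC, which went from -0.08 (edgeR adjusted p 0.704, not called) to 0.25 without CC replicate 3 (-0.22 to 0.25 on leaving out 1 library). PPM1D, a phosphatase among the other targets, likewise gained a call in TC against CC without that library (0.33, adjusted p 0.00282, range -0.19 to 0.33). With all libraries its difference was -0.004 (adjusted p 0.986). With only the 2 groups compared in the fit, 3 members were lower in PC than in CC. On leaving out 1 library, the members lower in PC than in CC numbered 3 to 5, those higher in RC than in CC 0 to 2, and those higher in PC than in TC 0 to 1. Their median log2 fold change then ran from -0.48 to -0.20 in TC, from -0.32 to -0.19 in PC and from -0.39 to -0.27 in RC against CC. Deviations of same-numbered replicates correlated at -0.05 to 0.20 (median 0.03), below 0.1 for most pairs, so the numbers were not taken to pair the libraries. Between TC and PC they correlated at 0.20, 0.06 and 0.18, and between CC and TC at 0.04, 0.05 and 0.09. In both comparisons each library went best with its own number, a hint of pairing from the data. The deposited column names give same-numbered libraries the same ending, without saying whether they were handled together. With the replicate number as a block, 2 members rose and 5 fell in TC against CC, and no member's call changed. Scaling by DESeq2 size factors or library totals moved the median of all genes by less than 0.1. With 3 libraries a group, a missed threshold does not show that levels were equal.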
